A study of Mus musculus with 12 samples.

Results

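The genes of transforming growth factor beta (TGF-beta) signalling described here are 10 rows of a table of 41128 mouse genes, taken by gene name and without regard to their values. They are the ligand gene Tgfb1, the receptor genes Tgfbr1, Tgfbr2 and Tgfbr3, the signal carriers Smad2, Smad3 and Smad4, the inhibitor Smad7 and the corepressors Ski and Skil. RNA was sequenced from splenic lymphocytes of C57BL/6J mice (6 to 8 weeks old) in 12 libraries, with no transgene, deletion or treatment named in the labels. The libraries form 4 groups of 3, namely resting CD43- B cells from females and from males, numbered 1 to 3, and naive CD4+ CD62L+ T cells from females and from males, numbered 4 to 6. The replicates were pools of mice, and the error between libraries is therefore that between pools. The T cells were enriched on magnetic beads, with regulatory T cells among the cells depleted, and were then sorted as CD62L high, CD44 low and CD25-.

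TGF-beta1 is made as a latent protein and, once released, binds the type II receptor TGFBR2, which recruits and phosphorylates the type I receptor TGFBR1. TGFBR1 phosphorylates SMAD2 and SMAD3, which join SMAD4 and enter the nucleus, while SMAD7 blocks the receptors and SKI and SKIL (also called SnoN) hold back the SMAD complex on DNA. In lymphocytes the pathway is known for restraining the activation of naive T cells, for the formation of regulatory T cells and for the switch of B cells to IgA.

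Values are given as adjusted TPM, the authors' name for a transcript level per length, whose adjustment is not described in the sources used here. Levels of different genes are set side by side on this scale within a cell type. The libraries carried the markers of their labels. The summed adjusted TPM of 4 B cell markers (Cd79a, Cd79b, Ms4a1 and Pax5) was 2220.4 to 2643 in B cell libraries and 0.896 to 4.91 in T cell libraries, and the sum of 5 T cell markers (Cd3d, Cd3e, Cd4, Lck and Tcf7) was 1017 to 1194 in T cell libraries and 9.76 to 14.1 in B cell libraries, nearly all of the latter being Lck. Between 11122 and 11543 genes reached an adjusted TPM of 1 in a library, and the totals of the libraries ran from 561020 to 1453940.

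The bases just before the transcription start are shown for 4 of the genes, because they cover the gene that was highest in B cells relative to T cells (Tgfb1), a pair that was higher in T cells (Ski and Smad3) and the member with the highest level in either cell type (Tgfbr2). They come from the RefSeq promoter table of GRCm38.p6, which by symbol matched 5 of the 10 genes, Tgfbr1 being the other. Capitals mark matches, on either strand, to the SMAD half-site CAGAC, which reads GTCTG on the other strand, or to the GC box GGGCGG, which reads CCGCCC there. The SMAD palindrome GTCTAGAC, which does not itself hold a half-site, was searched too, as was the TATA box TATAAA on either strand. Each run is 5′ to 3′ on the strand of the gene, and that of Ski is 193 bases long because the GENCODE annotation places the bases after it inside the gene.
Tgfb1, chr7:25686752-25687001, plus strand: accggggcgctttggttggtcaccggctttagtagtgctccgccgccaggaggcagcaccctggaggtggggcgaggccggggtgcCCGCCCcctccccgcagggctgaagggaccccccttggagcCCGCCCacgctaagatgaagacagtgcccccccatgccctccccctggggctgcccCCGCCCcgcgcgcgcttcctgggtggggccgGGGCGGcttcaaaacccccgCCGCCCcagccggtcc
Ski, chr4:155222593-155222785, minus strand: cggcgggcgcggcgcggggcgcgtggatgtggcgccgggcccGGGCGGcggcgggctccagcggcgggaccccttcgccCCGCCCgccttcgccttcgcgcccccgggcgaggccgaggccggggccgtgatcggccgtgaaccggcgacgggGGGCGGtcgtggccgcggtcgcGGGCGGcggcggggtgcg
Smad3, chr9:63757995-63758244, minus strand: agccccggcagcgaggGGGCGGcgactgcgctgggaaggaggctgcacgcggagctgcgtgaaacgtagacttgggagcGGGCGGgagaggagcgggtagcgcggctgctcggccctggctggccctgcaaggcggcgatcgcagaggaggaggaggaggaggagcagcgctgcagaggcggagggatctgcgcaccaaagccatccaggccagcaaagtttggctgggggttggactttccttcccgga
Tgfbr2, chr9:116175364-116175613, minus strand: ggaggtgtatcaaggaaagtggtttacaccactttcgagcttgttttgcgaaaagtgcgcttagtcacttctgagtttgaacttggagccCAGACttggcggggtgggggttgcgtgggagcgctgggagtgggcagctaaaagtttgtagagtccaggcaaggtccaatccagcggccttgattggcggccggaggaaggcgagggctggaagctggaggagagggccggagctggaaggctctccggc
The Tgfb1 run held 5 GC boxes, the Ski run 4 and the Smad3 run 2, and none of these 3 held a SMAD half-site. Tgfbr2 differed from them, with 1 half-site and no GC box. The palindrome and the TATA box were found in none of the 4 runs. Among 32851 windows of 250 bases in the table, 42.2% held the half-site, 32.7% the GC box, 12.4% the TATA box and 0.167% the palindrome, so a half-site or a GC box is a common match.

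B cells were compared with T cells over both sexes, 6 libraries against 6. Tgfb1, which encodes the ligand, was higher in B cells, and Tgfbr3, Smad3, Smad4, Smad7 and Ski were higher in T cells. Tgfbr2 was also higher in T cells in the values as deposited, by a small margin that turned to the other side when every library was rescaled to a total of 1000000. Tgfbr1, Smad2 and Skil did not pass the test. Thus 7 of the 10 genes passed (adjusted p under 0.05, limma with Benjamini-Hochberg adjustment over all 12520 genes tested), against 73.0% of all genes tested. Higher in B cells was 1 of the 10, where 31.4% of all genes were, and 6 were higher in T cells, where 41.6% were. The count of 1 became 3 or 4 under other scalings of the libraries and 3 without female and male T cells 6. In 5 genes the change was at least 1 on the log2 scale, a size reached by 21.6% of all genes, and in 7 the B and T cell libraries did not overlap, as in 53.9% of all genes. The count of genes passing was thus close to the background. The median log2 fold change, B minus T, was -0.53 over the 10 genes and -0.09 over all genes tested. All 10 genes passed the filter on low values, but Tgfbr3 did so only through the T cell libraries. In such bulk samples fewer cells carrying a transcript and less transcript in each cell cannot be told apart.

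**Figure D1:**
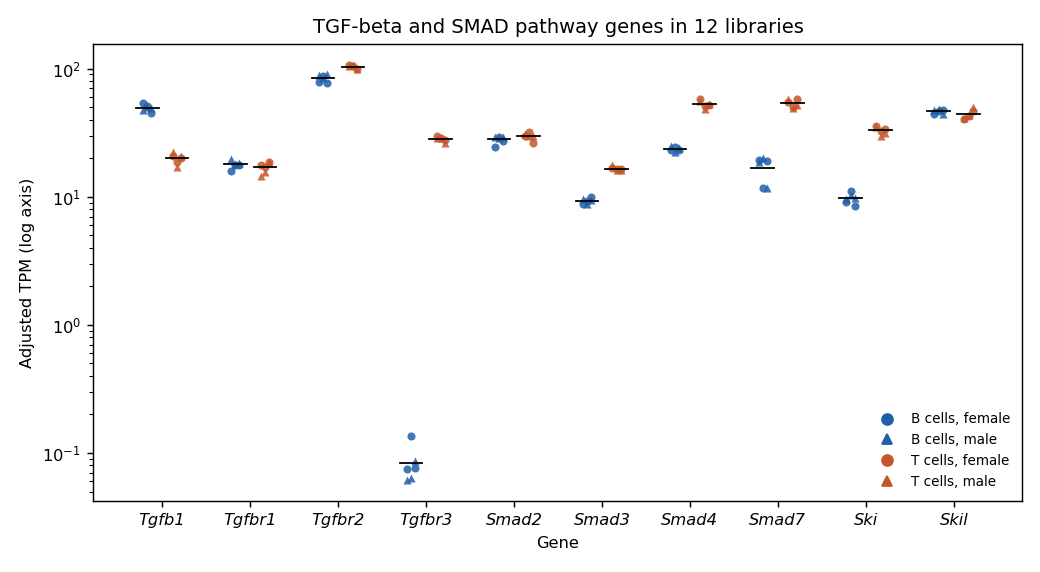
Adjusted TPM (log axis) of the 10 genes in each of the 12 libraries, with B cells in blue, T cells in orange, circles for females, triangles for males and black lines at the means of 6 libraries. Tgfb1 lies higher in B cells, Tgfbr3 falls to between 0.0616 and 0.136 in B cells, and Tgfbr1, Smad2 and Skil overlap between the cell types.

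Tgfb1 (ENSMUSG00000002603, chromosome 7, 25687002 to 25705077 on the plus strand of GRCm38, protein-coding) encodes TGF-beta1, the main form of the ligand in immune cells. Its adjusted TPM was 53.9, 50.6 and 45.2 in female B cells 1 to 3 and 47.6, 49.8 and 49.5 in male B cells 1 to 3. In T cells 4 to 6 it was 20.8, 18.8 and 20.2 in females and 22.3, 17.1 and 20.7 in males. Every B cell library was thus above every T cell library. B cells had a mean of 49.4 ± 2.93 and T cells a mean of 19.98 ± 1.81 (SD, n = 6 each), a ratio of 2.47. The log2 fold change was 1.27 (SE 0.07, adjusted p = 2.2e-09). Platelets are rich in TGF-beta1, and platelet markers were present in the B cell libraries. The platelet factor gene Pf4 was between 0.537 and 3.31 in the B cell libraries and did not exceed 0.0316 in those of T cells, and the sum of 5 platelet markers was 6.79 to 19.1 against 1.61 to 2.44. Tgfb1 was highest in female B cells 1, where Pf4 was lowest among B cells (0.537). It was next highest in female B cells 2 (50.6), where Pf4 was highest (3.31). Without female B cells 2 and male B cells 3, the libraries with the most Pf4, the log2 fold change of Tgfb1 was 1.26. The part of platelet RNA in the Tgfb1 values was not tested.

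Tgfbr2 (ENSMUSG00000032440, chromosome 9, 116084293 to 116175360, minus strand) encodes the receptor that binds the ligand first. It had the highest level of the 10 genes in both cell types. The lowest, median and highest adjusted TPM were 76.7, 86.1 and 90.5 in B cells against 99.0, 104 and 107 in T cells, without overlap. The means were 84.5 ± 5.90 and 103 ± 3.18 (SD, n = 6 each), and the log2 fold change was -0.29 (SE 0.05, adjusted p = 0.00022). This small difference depended on how libraries were scaled. It was -0.18 after median-ratio scaling (adjusted p = 0.0036), -0.01 with equal totals over protein-coding genes (adjusted p = 0.94) and 0.09 with equal totals over all genes (adjusted p = 0.73).

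Tgfbr1 (ENSMUSG00000007613, chromosome 4, 47353222 to 47414931, plus strand), the type I receptor, was at nearly the same level in both cell types. Its lowest, median and highest adjusted TPM were 16.0, 17.9 and 19.6 in B cells against 14.6, 17.3 and 18.8 in T cells. The ranges overlapped, and the log2 fold change was 0.07 (95% confidence interval -0.07 to 0.20, adjusted p = 0.34). Both T cell libraries numbered 6 were the highest T cell libraries for Tgfbr1.

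Tgfbr3 (ENSMUSG00000029287, chromosome 5, 107106570 to 107289629, minus strand) encodes betaglycan, a coreceptor that presents the ligand to TGFBR2. It had the largest difference of the 10 genes. In B cells its adjusted TPM was 0.0746, 0.136 and 0.0771 in females and 0.0616, 0.0643 and 0.0868 in males, and in T cells it was 29.6, 28.5 and 27.7 in females and 28.5, 28.6 and 26.1 in males. All B cell values were far below 1, where the deposited bounds are wide, and the highest upper bound in B cells was 0.192 against a lowest lower bound of 24.7 in T cells. The ratio of the means, T over B, was 338, and the log2 fold change was -4.75 (SE 0.05, adjusted p = 3.2e-16) with 1 added to each value and -7.28 with 0.1 added. An opposite-strand pseudogene, Gm8145, lies inside Tgfbr3, with means of 0.0240 in B cells against 0.767 in T cells. The libraries were stranded, but whether the counting used strand is not given in the sources used here.

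Among the signal carriers, Smad2 and Smad3 encode the SMADs that the receptor phosphorylates, and they behaved unlike each other. Smad2 (ENSMUSG00000024563, chromosome 18, 76241580 to 76310963, plus strand) had a lowest, median and highest adjusted TPM of 24.6, 28.9 and 29.5 in B cells against 26.1, 29.9 and 31.9 in T cells. These ranges overlapped, with a log2 fold change of -0.08 (95% confidence interval -0.21 to 0.05, adjusted p = 0.23). Smad3 (ENSMUSG00000032402, chromosome 9, 63646767 to 63757994, minus strand) was at 8.79, 9.40 and 9.90 in B cells against 16.0, 16.5 and 17.7 in T cells. Every T cell library was higher than every B cell library, with -0.77 as the log2 fold change (SE 0.05, adjusted p = 1.8e-08). With equal totals over all genes the Smad3 value was -0.42 and no longer passed (adjusted p = 0.054).

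Smad4 (ENSMUSG00000024515, chromosome 18, 73639009 to 73703780, minus strand) encodes the common partner of the phosphorylated SMADs. Its lowest, median and highest adjusted TPM were 22.2, 23.6 and 24.8 in B cells against 48.3, 52.6 and 57.7 in T cells. The cell types were well apart, with means of 23.7 ± 1.02 and 53.0 ± 3.36 (SD, n = 6 each), a ratio of 2.24 and a difference of -1.13 on the log2 scale (SE 0.05, adjusted p = 7.4e-10). Relative to the summed level of Smad2 and Smad3 in the same library, Smad4 was at 0.634 ± 0.0334 in B cells against 1.15 ± 0.0756 in T cells (SD, n = 6 each).

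Smad7 (ENSMUSG00000025880, chromosome 18, 75367529 to 75395935, plus strand) encodes the inhibitory SMAD, itself known as a target of the pathway. Its adjusted TPM was 19.3, 11.7 and 18.9 in female B cells 1 to 3 and 18.8, 20.04 and 11.7 in male B cells 1 to 3. In T cells 4 to 6 it was 54.5, 49.7 and 58.0 in females and 57.9, 49.0 and 51.5 in males. Female B cells 2 and male B cells 3 stood well below the other 4 B cell libraries, while no T cell library came near the B cell range. The log2 fold change was -1.65 (SE 0.14, adjusted p = 2.5e-07). Leaving out that pair of libraries, a choice made after seeing the data, gave -1.42 (SE 0.07, adjusted p = 1.3e-08). Smad7 had the largest SE of the 10 genes. The sum of the 5 platelet markers was highest in the same pair, at 19.1 and 13.8 against 6.79 to 10.8 in the other 4 B cell libraries. Of the 5, Pf4, Ppbp and Gp9 were highest in the pair, Itga2b was highest in female B cells 2 (2.63) but not in male B cells 3 (1.82), and Gp1ba was lowest in the pair (1.30 and 1.48). Id3, a regulator of lymphocyte development, was highest there (55.1 and 53.8), and Tgif1, a SMAD corepressor, was lowest (39.6 and 31.0). The part of these in the Smad7 values was not tested, and Id3 and Tgif1 were picked for this pattern after their values were seen.

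The corepressor genes Ski and Skil encode related proteins that bind the SMAD complex, and here too the members of a pair differed. Ski (ENSMUSG00000029050, chromosome 4, 155154075 to 155222592, minus strand) had a lowest, median and highest adjusted TPM of 8.42, 9.70 and 11.04 in B cells against 29.9, 33.2 and 35.8 in T cells. The ranges were far apart, with means 3.41 times apart and a log2 difference of -1.67 (SE 0.07, adjusted p = 1.1e-10). Skil (ENSMUSG00000027660, chromosome 3, 31095058 to 31122577, plus strand) was at 43.8, 47.0 and 48.6 in B cells against 40.1, 42.8 and 50.1 in T cells. Its ranges overlapped, with a log2 fold change of 0.08 (95% confidence interval -0.05 to 0.21, adjusted p = 0.25). Since Skil was the more abundant of the pair in both cell types, the summed level of Ski and Skil differed less than Ski did, at 56.2 ± 2.32 in B cells against 77.0 ± 3.40 in T cells (SD, n = 6 each).

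By level, the order in B cells was Tgfbr2, Tgfb1, Skil, Smad2, Smad4, Tgfbr1, Smad7, Ski, Smad3 and Tgfbr3. In this order the ranges of Tgfb1 and Skil, Smad2 and Smad4, Tgfbr1 and Smad7, and Ski and Smad3 overlapped, and the other neighbours were apart. In T cells the order was Tgfbr2, Smad7, Smad4, Skil, Ski, Smad2, Tgfbr3, Tgfb1, Tgfbr1 and Smad3. There the ranges of Smad7, Smad4 and Skil overlapped from neighbour to neighbour, as did those of Ski, Smad2 and Tgfbr3 and those of Tgfb1, Tgfbr1 and Smad3. Tgfb1 thus stood just below Tgfbr2 in B cells and among the lowest levels in T cells, while Smad7 stood among the lower levels in B cells and just below Tgfbr2 in T cells.

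The scale of the libraries bears on the small differences. As deposited, the median log2 fold change over all genes tested was -0.09, and it was 0.01 after median-ratio scaling, 0.17 with equal protein-coding totals and 0.26 with equal totals. The share of calls that were higher in B cells was 43.0%, 52.6%, 66.4% and 71.6%, in the same order. Relative to the median of all genes, the changes of 9 members moved by at most 0.03 between the 4 scalings, and Tgfbr3 ran from -5.04 to -4.66. Each scaling multiplies a whole library by a single factor and so shifts most genes nearly alike. The small movement of the 9 members was therefore largely fixed beforehand and is no check on their differences. Tgfb1 was between 1.36 and 1.38, Smad7 between -1.56 and -1.54, Ski between -1.58 and -1.57, Smad4 between -1.04 and -1.02 and Smad3 between -0.68 and -0.67. Tgfbr2 lay between -0.20 and -0.17, Tgfbr1 between 0.16 and 0.17, Skil between 0.17 and 0.20 and Smad2 between 0.01 and 0.03. Against zero, Tgfbr1 and Skil passed the test as higher in B cells under each of the other 3 scalings, with Tgfbr1 between 0.18 and 0.43 and Skil between 0.19 and 0.46. Of the 4 scalings, Smad2 passed as higher in B cells only with equal protein-coding totals (0.20, adjusted p = 0.042, limma).

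**Figure D2:**
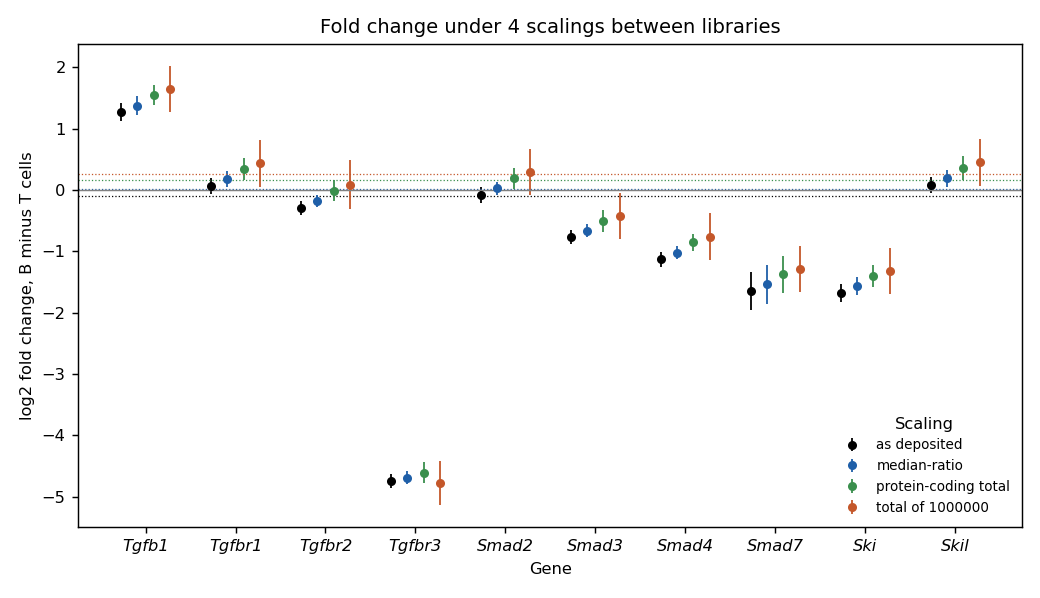
Log2 fold change, B minus T cells, of the 10 genes under 4 scalings between libraries, with 95% confidence intervals and dotted lines at the median of all genes tested in each scaling. Tgfb1 stays above zero and Tgfbr3, Smad3, Smad4, Smad7 and Ski below it, while Tgfbr2 runs from -0.29 as deposited to 0.09 with equal totals and Smad2 from -0.08 to 0.29.

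Ratios of genes within a library do not depend on such scaling, and 5 were compared. Tgfb1 over Tgfbr2, ligand over receptor, was 0.532 to 0.692 in B cells against 0.161 to 0.214 in T cells. Skil over Ski was 4.23 to 5.60 in B cells against 1.12 to 1.59 in T cells. Smad3 over Smad2 was 0.308 to 0.361 in B cells against 0.512 to 0.634 in T cells. These 3 ratios were well apart between the cell types. Smad7 over Smad3, inhibitor over carrier, was 1.23 to 2.27 in B cells against 3.05 to 3.50 in T cells. Tgfbr1 over Tgfbr2 was the closest, at 0.202 to 0.230 in B cells against 0.141 to 0.190 in T cells. None of the 5 ratios overlapped between the cell types. Taken singly, 53.9% of all genes tested did not overlap either, and the share over all pairs of genes was not computed. The differences of the mean log2 ratio, B minus T, were 1.60 for Tgfb1 over Tgfbr2, 1.85 for Skil over Ski, -0.75 for Smad3 over Smad2, -0.88 for Smad7 over Smad3 and 0.36 for Tgfbr1 over Tgfbr2. Each had p = 0.0022 in a two-sided exact permutation test of 6 against 6 libraries, which is the smallest p this test can give, and 0.0022 after adjustment over the 5 ratios. With same-numbered female and male T cell libraries averaged, since they deviated together, a choice made after seeing the data, each of the 5 ratios had p = 0.024 in the exact permutation test of 6 B cell libraries against 3 T cell pairs, again the smallest it can give, and 0.024 after adjustment. Averages of T cell libraries stay within the range of those libraries, which did not reach the B cell range. This p was therefore fixed beforehand and is no further check.

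**Figure D3:**
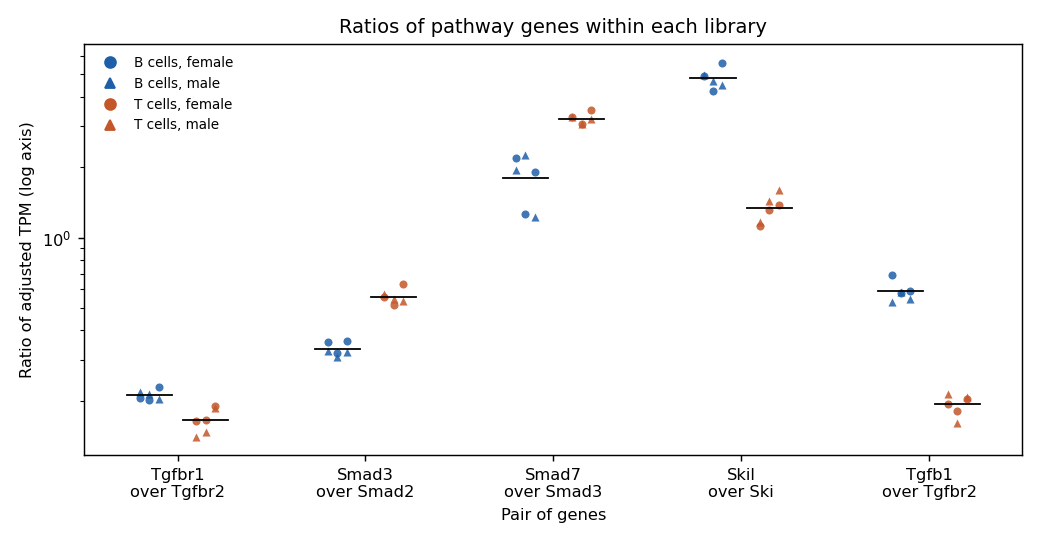
Ratio of adjusted TPM (log axis) of 5 pairs of genes in each library, with B cells in blue, T cells in orange, circles for females, triangles for males and black lines at the means of 6 libraries. Skil over Ski and Tgfb1 over Tgfbr2 are higher in B cells, Smad3 over Smad2 and Smad7 over Smad3 are higher in T cells, and Tgfbr1 over Tgfbr2 has the closest ranges.

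The sexes were compared within each cell type. The labels carry a further number whose meaning is not given in the sources used here. Female B cells share it with male T cells, and male B cells share the other value with female T cells. Within a cell type it cannot be told apart from sex, nor from the difference between the sex effects. None of the 10 genes passed in B cells, where 0.144% of all genes tested did, in T cells, where 0.104% did, or in the difference between the sex effects, where 0.0% did. At an unadjusted limma p under 0.05 the count was also 0 of 10 in each of these comparisons, against 373, 319 and 295 of all genes tested. The largest log2 differences, female minus male, were -0.13 for Tgfbr2 in B cells (95% confidence interval -0.29 to 0.03) and 0.13 for Tgfbr1 in T cells (95% confidence interval -0.06 to 0.32). Tgfbr2 had group means of 80.7 in female and 88.2 in male B cells, and 103 in T cells of either sex. Tgfbr1 had means of 17.1 in female and 18.7 in male B cells and of 17.8 in female and 16.3 in male T cells. Its sex effects therefore had opposite signs, with a difference of -0.25 (95% confidence interval -0.52 to 0.02) that did not pass. For Smad7 the interval was the widest, from -0.44 to 0.42 in B cells, so a sex difference of that size could not be detected there.

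Other genes of the TGF-beta superfamily pathway were taken from a list of 77 by role, of which 75 were in the table and 45 passed the filter on low values. Of these 45, 18 were higher in B cells, 16 were higher in T cells and 11 did not pass, with a median log2 fold change of 0.00 against -0.09 over all genes tested. Of all genes tested, 73.0% passed, 31.4% being higher in B cells against 41.6% in T cells. With equal totals over all genes, 21 were higher in B cells against 8 in T cells, where 39.1% and 15.5% of all genes were. The roles hold few genes each, and differences between roles were not tested. Both ligand genes tested and 3 of 4 tested genes of latency and activation were higher in B cells, and no tested gene of these roles was higher in T cells. In T cells 3 of 4 tested other receptors and both other SMADs tested were higher, and no tested gene of these roles was higher in B cells. The filter left 6 ligand genes, 7 of latency and activation, 7 other receptors and 2 other SMADs untested. Among 9 nuclear cofactors, 7 were higher in B cells against 2 in T cells, among 15 SMAD regulators 4 and 7, among 6 genes of branches outside the SMADs 0 and 1, and among 3 genes known to respond to TGF-beta 2 and 1. Tgfb3, Thbs1 and Tgfbi passed the filter only through B cell libraries, and Acvrl1, Bmpr2 and Pmepa1 only through T cell libraries. No gene of the list passed in a sex comparison.

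Among the ligand, latency and activation genes, Gdf11, a ligand related to myostatin, had a mean adjusted TPM of 15.0 ± 0.943 in B cells against 4.73 ± 0.479 in T cells, with a log2 fold change of 1.48 (adjusted p = 3.9e-10). Nrros, whose product tethers latent TGF-beta1 at the cell surface, was at 68.8 ± 10.5 and 29.1 ± 1.33, a log2 fold change of 1.20 (adjusted p = 1.2e-07), so both the ligand gene Tgfb1 and this tether were higher in B cells. Thbs1 encodes thrombospondin 1, a platelet protein that can activate latent TGF-beta. It was at 1.13 to 4.02 in the B cell libraries and no more than 0.0149 in those of T cells, with a log2 fold change of 1.66 (adjusted p = 6.0e-06), and it passed the filter only through the B cell libraries. Its highest values, 4.02 and 3.47, were in female B cells 2 and male B cells 3, where Pf4 was highest too, and the part of platelet RNA was not tested.

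Among the receptors and regulators, Acvrl1, which encodes the type I receptor ALK1 for certain bone morphogenetic proteins, was at 0.188 to 0.355 in B cells against 11.6 to 19.1 in T cells. Its log2 fold change of -3.78 (adjusted p = 3.7e-12) was next in size to that of Tgfbr3, and it too passed the filter only through the T cell libraries. Ldlrad4, an inhibitor that binds receptor-regulated SMADs, was at 1.24 ± 0.0873 in B cells against 7.69 ± 0.911 in T cells (log2 fold change -1.95, adjusted p = 6.6e-11). Fkbp1a, whose product FKBP12 keeps type I receptors inactive, and Smurf1, a ubiquitin ligase that acts with SMAD7, were also higher in T cells, with log2 fold changes of -1.28 (adjusted p = 3.1e-09) and -1.19 (adjusted p = 1.2e-09). The corepressor gene Tgif1 went the other way, at 42.7 ± 7.14 in B cells against 11.4 ± 1.95 in T cells (log2 fold change 1.81, adjusted p = 3.1e-08). Of the genes known to respond to TGF-beta, Id2, an inhibitor of basic helix-loop-helix factors, was at 8.63 ± 2.15 and 30.8 ± 3.72 (log2 fold change -1.75, adjusted p = 2.5e-07). All SDs in these paragraphs are over n = 6 libraries.

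**Figure D4:**
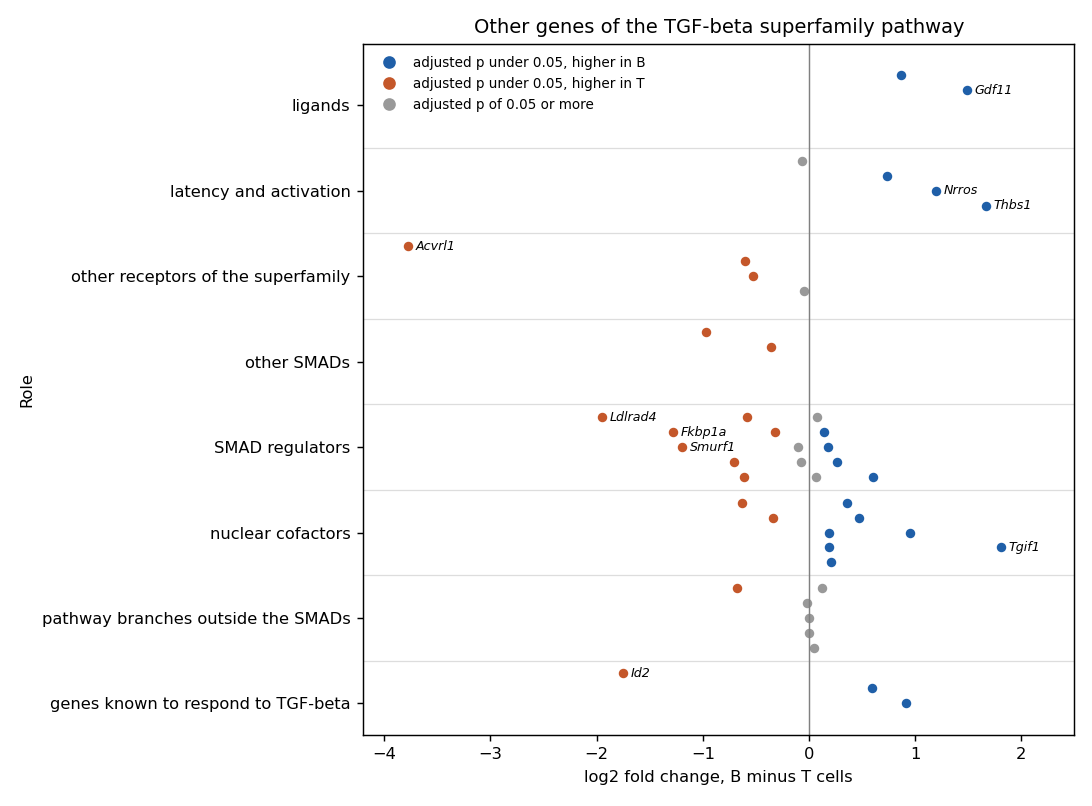
Log2 fold change, B minus T cells, of 45 other genes of the TGF-beta superfamily pathway by role, with genes past the threshold in blue (higher in B cells) or orange (higher in T cells) and the others in grey, and vertical offsets that only part the points. Genes with a change of at least 1 are named, from Acvrl1 at -3.78 to Tgif1 at 1.81.

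The T cell libraries numbered 6 differed from the others in markers of regulatory T cells, a type for which TGF-beta signalling is well known. Foxp3, the defining factor of these cells, was at 2.57 in female and 1.82 in male T cells 6 and at 0.440 to 0.735 in the other 4 T cell libraries. Il2ra, which encodes CD25, was at 4.999 and 4.11 against 0.158 to 0.340, although the cells were sorted as CD25-. Ikzf2 was at 13.4 and 11.3 against 1.07 to 2.07, and Ctla4 at 13.2 and 11.4 against 1.57 to 2.15. The sum of these 4 markers was thus 34.2 and 28.6 in the libraries numbered 6 and 3.32 to 5.29 in the others. Lrrc32, Itgb8 and Itgae, pathway genes picked after their values were seen, were higher in the same pair of libraries, at low levels. Lrrc32, whose product GARP displays latent TGF-beta1 on regulatory T cells, was at 1.55 and 1.36 against at most 0.0336. Itgb8, a subunit of an integrin that releases the ligand, was at 0.271 and 0.214 against at most 0.0197, and Itgae, which encodes the TGF-beta-responsive integrin CD103, was at 0.833 and 0.769 against at most 0.103. Nrros, another gene of latency, was not higher there, at 26.7 and 29.2 against 28.8 to 30.5.

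Of the 10 genes, Tgfbr1 (18.8 and 18.6 against 14.6 to 17.5) and Skil (46.8 and 50.1 against 40.1 to 43.0) were highest in these 2 libraries, while Tgfbr2 (99.0 and 99.99 against 104 to 107) and Tgfbr3 (27.7 and 26.1 against 28.5 to 29.6) were lowest. Without the pair, a choice made after seeing the data, Tgfbr1 and Skil passed the test as higher in B cells, with log2 fold changes of 0.13 (adjusted p = 0.039) and 0.15 (adjusted p = 0.020). Then 9 of the 10 genes passed, 3 of them higher in B cells, where 73.8% of all genes tested passed and 32.1% were higher in B cells. The values of Tgfb1 (1.29) and Smad7 (-1.63) stayed close to those with all libraries. The part of regulatory T cells in these values was not tested.

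**Figure D5:**
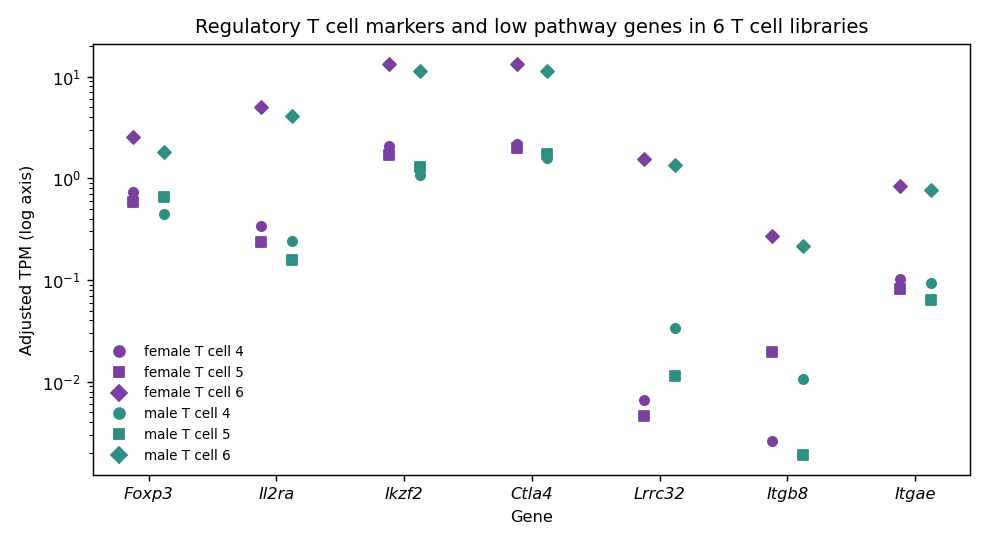
Adjusted TPM (log axis) of 4 regulatory T cell markers and 3 pathway genes in the 6 T cell libraries, with females in purple, males in green, and circles, squares and diamonds for libraries 4, 5 and 6. The diamonds lie above the other libraries for all 7 genes, for Foxp3 at 2.57 and 1.82 against 0.440 to 0.735.

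The genes most like Tgfb1 over the 12 libraries, by Pearson correlation of log2(adjusted TPM + 1) among 12520 genes, were Rftn2 (r = 0.995), Arap1 (r = 0.994) and Dexi (r = 0.993), and 1661 genes had an r of at least 0.95. For Tgfbr3 they were Als2cl, Cd4 and Themis, each with r of 1.00 after rounding, and 1757 genes reached 0.95. The points share only 2 cell types, so these values mainly describe genes that part B from T cells. Mean adjusted TPM in B and T cells was 6.56 and 2.78 for Rftn2, 65.4 and 22.0 for Arap1, and 25.2 and 6.93 for Dexi. The CD4 coreceptor gene Cd4 was at 0.00361 in B cells against 191 in T cells.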

How the data were processed

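RNA sequencing values were read for 12 libraries of splenic B and T cells, grouped by the titles in the labels. Per the labels, total RNA was depleted of ribosomal RNA, spiked with ERCC transcripts and made into stranded libraries. Some label fields name genomic DNA, but the protocol describes RNA. The submitters' processing notes list mm10, Trim Galore, FastQC and STAR. The table deposited by the authors holds a signal named adjusted TPM, with a lower and an upper bound. The quantifier, the adjustment and the level of the bounds are not given in the sources used here, and the sequencing depth is unknown.

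Values were analysed as log2(adjusted TPM + 1), which understates changes of low genes. The 12520 genes that reached 1 in 3 or more libraries were tested with limma 3.58.1 in R 4.3.3, with a mean-variance trend and 1 coefficient per group over all 12 libraries. The contrasts were B against T cells, female against male in each cell type, and the difference of these. The threshold was a Benjamini-Hochberg adjusted p of 0.05, and the fit was tested on simulated data. Ratios were compared with scipy 1.17.1, and plots were drawn with matplotlib 3.10.9. Coordinates come from GENCODE M21 (GRCm38, the same assembly as mm10), matched for 40254 of 41128 genes. Promoter runs leave out bases that GENCODE places inside the gene.

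The 10 genes, the pathway list and the marker lists were chosen with earlier results of these data known. Besides the 10 genes, the text names list genes past the threshold without overlap and with a change of at least 1 (at most 4 a role), and the 3 genes most correlated with Tgfb1 and Tgfbr3, and says where others were picked after their values were seen. A further gene of the B cell marker list is not reported here. Marker lists of CD8 T cells, macrophages, neutrophils, natural killer cells, dendritic cells, plasma cells, erythroid cells and stroma had summed values of at most 2.32, 13.4, 2.16, 1.38, 6.61, 7.67, 196 and 0.0119 in B cell libraries, and of at most 8.27, 5.64, 2.57, 0.728, 0.698, 1.96, 43.1 and 0.00549 in T cell libraries. In T cells, same-numbered female and male libraries deviated together from their group means (r = 0.721, 0.548 and 0.521 over genes), so the numbers were taken to pair them, while in B cells they did not (r = -0.169, -0.0382 and -0.337).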

Additional observations from a re-analysis of the deposited data

How the results depend on the processing

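Scaling decided the smaller differences. A single gene, Yam1, held 37.4% of the total in male T cells 6, the library with the largest total, and 32.2% in female B cells 1. Protein-coding genes held from 38.5% (male T cells 6) to 68.0% (female B cells 3) of a total. With equal totals of 1000000 the SE of Tgfbr2 was 0.20, against 0.05 as deposited. The cause of the differences between scalings was not tested. The count of the 10 genes that were higher in B cells, 1 as deposited, was 3 after median-ratio scaling, 3 with equal totals of 1000000, 4 with equal protein-coding totals and 3 without female and male T cells 6, the last pair of settings being chosen after seeing the data. Of all genes tested, 31.4% were higher in B cells as deposited, and 38.0%, 39.1%, 45.9% and 32.1% under these settings, in the same order. Tgfbr2 turned to 0.089 with equal totals, and Smad2 to 0.030 after median-ratio scaling, 0.29 with equal totals and 0.20 with equal protein-coding totals. Only the last of these Smad2 values passed the test. With equal totals, 8 genes of the pathway list were higher in T cells, against 16 as deposited, where 15.5% and 41.6% of all genes were. Leaving out any single library left 7 of the 10 genes past the threshold, where 69.6% to 73.4% of all genes tested passed. Tgfb1, Tgfbr3, Smad4, Smad7 and Ski kept their direction and passed under all 21 alternatives, and the 5 ratios under all 14. Most of these 14 left out a single library. Since the ratios did not overlap between the cell types, neither leaving out a library nor averaging T cell libraries could alter that. Passing in these settings was fixed beforehand. With same-numbered T cell libraries averaged, an alternative chosen after seeing the data, 7 of the 10 genes passed, as did 68.1% of all genes. The sex comparisons gave 0 of 10 genes under all 18. With the replicate block the sex comparisons again gave 0 of 10 genes, and 14 of all genes in B cells against 18 without it, 10 in T cells against 13, and 0 for the difference, so the block changed no call reported here. No paired analysis was possible between B and T cells because these libraries share no replicate numbers. Low values, such as those of Tgfbr3 in B cells, have wide bounds, and their fold changes depend on the pseudocount.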
